A study of Mus musculus with 8 samples.

Results

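The heat shock proteins of the cytosol and the mitochondria were examined in J774A.1 macrophages, as 10 genes chosen by symbol out of the 55487 genes listed: the transcription factor gene Hsf1 and the chaperone genes Hspa1a, Hspa1b, Hspa8, Hspa9, Hsph1, Dnajb1, Hsp90aa1, Hsp90ab1 and Hspd1. All 10 were found, each in 1 row of the table. They were chosen with earlier results of these data known, so their counts beside all genes are a description. J774A.1 is an established line of mouse macrophages. Of the 8 cultures sequenced, 4 received LPS, a component of the outer membrane of Gram-negative bacteria that activates macrophages, and 4 received LPS together with UDCA (ursodeoxycholic acid, a secondary bile acid), both for 24 h. In the study's methods UDCA was at 1 mM and LPS at 1 μg/mL. Every group thus carries LPS, and cells without LPS were not analysed here, so the comparison asks how UDCA shifts the transcriptome of macrophages that are already stimulated. The cultures are of 1 cell line, and the labels do not say whether the 4 replicates came from separate passages, so p-values measure the spread between these samples, which may be technical.

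Heat shock proteins are chaperones that bind unfolded or newly made proteins and help them fold. The HSP70 proteins do so in cycles of ATP hydrolysis that J-domain proteins (HSP40) start and nucleotide exchange factors such as HSP110 complete, and the HSP90 proteins act later, on nearly folded clients such as kinases and steroid receptors. HSF1 is held inactive by these same chaperones, and when unfolded proteins occupy them it forms trimers and binds heat shock elements, inverted repeats of the unit nGAAn, near the start sites of chaperone genes. Mitochondria hold their own HSP70 and a folding chamber made of HSP60 and HSP10.

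Sequences of the kind that HSF1 is known to read are shown first, as matches of letters, since binding was not measured. Promoter windows of 300 bases (250 before to 50 after an annotated start, RefSeq on GRCm38.p6) were at hand for 5 of the 10 genes, Dnajb1, Hspa1a, Hspa1b, Hspd1 and Hsph1, and for 84 of the genes of the related lists below. Both strands were searched for the 2-unit words GAANNTTC and TTCNNGAA, and for a 3-unit word in which they overlap by a unit (GAANNTTC followed by NNGAA, or its reverse complement, TTCNNGAA followed by NNTTC). The 3-unit word was in 198 of 32851 windows (0.603%), while GAANNTTC was in 7.86% and TTCNNGAA in 8.52% of them. Among the 10 genes Hspd1 (in 1 of its 2 windows) and Hsph1 held the 3-unit word, and among the related genes Hspe1, Chordc1 and Dnajb6 did. Stretches of 30 bases around it are given 5′ to 3′ with the repeated units in capitals.
Hspe1 and Hspd1: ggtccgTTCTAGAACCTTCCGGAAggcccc
Hsph1: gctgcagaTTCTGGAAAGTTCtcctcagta
Chordc1: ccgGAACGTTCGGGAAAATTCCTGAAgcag
Dnajb6: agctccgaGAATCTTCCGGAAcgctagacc
The first lies at chr1:55088053-55088082 on the plus strand, 89 bases before the RefSeq start of Hspe1 (to the first capital) and within an annotated exon of Hspd1, which runs the other way. The others are at chr5:149636279-149636308 (minus strand), chr9:18292260-18292289 (plus strand) and chr5:29735844-29735873 (plus strand), each inside an exon of its own gene in GENCODE M21. Hspa1a and Hspa1b held the 2-unit word GAANNTTC alone, 104 bases before the start of each, and the 150 bases upstream of Hspa1a, at chr17:34972157-34972306 on the minus strand, are shown with that word in capitals.
Hspa1a: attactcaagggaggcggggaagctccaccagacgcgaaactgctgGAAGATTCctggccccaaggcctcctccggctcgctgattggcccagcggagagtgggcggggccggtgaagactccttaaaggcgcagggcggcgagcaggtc
The corresponding bases of Hspa1b (chr17:34959239-34959388) differed from these at 1 position, and the full windows of the pair were identical at 296 of 300 bases. Neither window of Dnajb1 held any of these words, which says only that these letters are not in it.

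With UDCA, 9 of the 10 genes had a mean of at least 1 TPM (a transcript level corrected for gene length and library size) and could be tested, and all 9 rose. The tenth, Hspa1a, was below that level. At an FDR under 0.05 from limma the count was 9 of 9 higher and 0 lower, where 40.2% of the 11796 genes tested were higher and 32.3% lower. None of the 9 was lower at an unadjusted p under 0.05 either, since all had a fold change above 1. At the study's thresholds, which add a fold change of at least 2, 6 of 9 were higher, against 8.71% of all genes tested, and 0 were lower, against 8.44%. In all 10 genes every LPS + UDCA library had a higher TPM than every LPS library, where 37% of the genes tested showed that pattern and 29.9% the opposite one. Log2 fold changes were taken on log2(TPM + 1), which understates the change of low genes, and ranged from 0.22 for Hspa9 to 2.88 for Hspa1b, with a median of 1.31 (all genes tested: 0.08). In bulk RNA, more cells expressing a gene and more of its RNA per cell cannot be told apart.

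**Figure D1:**
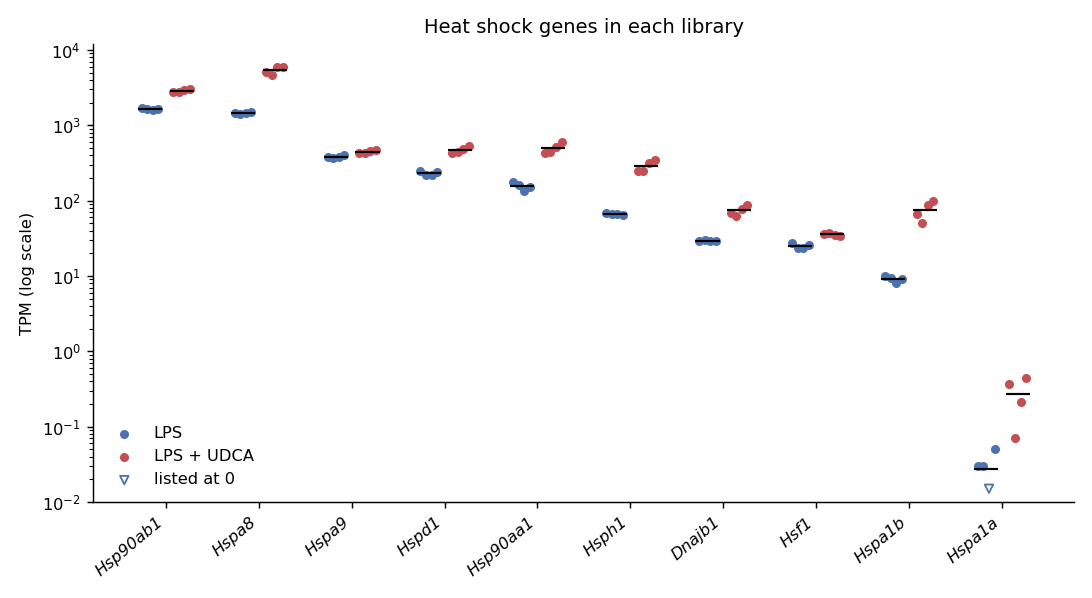
TPM of the 10 heat shock genes in each library (log axis), LPS in blue and LPS + UDCA in red, with a black line at the mean of 4 libraries and an open triangle for a value listed at 0. The red points lie above the blue points in all 10 genes, by least in Hspa9 and by most, among the genes tested, in Hspa1b.

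Of the HSP70 genes, Hspa1b and Hspa1a encode the stress-inducible cytosolic protein, are almost silent in unstressed cells and contain no intron. Hspa1b, on chromosome 17 from 34956436 to 34959238 of GRCm38, had 10.1, 9.43, 8.19 and 9.02 TPM in LPS replicates 1 to 4 and 67.3, 50.3, 88.0 and 99.0 TPM with LPS + UDCA. The lowest treated library was thus far above the highest library with LPS alone, and the treated libraries spread widely. The group means were 9.19 ± 0.807 and 76.1 ± 21.7 TPM (SD, n = 4), an 8.28-fold rise, and the log2 fold change was 2.88, with an SE of 0.19 (limma, adjusted p = 9.7e-07), the 22nd highest of all genes tested. Hspa1a, at 34969190 to 34972156 of the same chromosome, was listed at 0.03, 0.03, 0 and 0.05 TPM with LPS and at 0.37, 0.07, 0.21 and 0.44 TPM with LPS + UDCA. These levels were too low for the test, and they are uncertain for another reason. The coding sequences of the pair differ at 8 of 1926 aligned bases, and 67.6% of the 31-base words of Hspa1b also occur in Hspa1a (88.3% within the coding sequence, 17.7% outside it), so the table cannot say how reads were shared between them. The sum of both genes rose 8.29-fold, from 9.22 ± 0.818 to 76.4 ± 21.8 TPM.

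Hspa8 encodes the constitutive HSP70 (HSC70), which also strips clathrin from coated vesicles. Its libraries read 1468, 1392, 1443 and 1483 TPM with LPS and 5092, 4669, 5969 and 6028 TPM with LPS + UDCA. Although it is the member usually described as constitutive, it gained 3993 TPM, more than any other gene of the 10. The rise was 3.76-fold, from 1446 ± 40.3 to 5440 ± 668 TPM, and the log2 fold change was 1.90, with an SE of 0.08 (limma, adjusted p = 6.4e-08). Of its 31-base words 44.8% occur in other genes, most of them in the processed pseudogene Gm15459, which was listed at 906 to 951 TPM with LPS and at 2996 to 4075 TPM with LPS + UDCA. Gm15459 was called as well, with a log2 fold change of 1.95, and Hspa8 and Gm15459 summed to 2372 ± 56.8 and 9045 ± 1162 TPM, a 3.81-fold rise. The snoRNA genes Snord14c, Snord14d and Snord14e lie within Hspa8.

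Hsph1 and Dnajb1, partners of HSP70 in its cycle, rose as well. Hsph1 encodes HSP110, a relative of HSP70 that exchanges its nucleotide and helps to dissolve aggregates. It had 69.3, 66.5, 65.9 and 65.2 TPM with LPS and 250.2, 249.7, 312 and 344 TPM with LPS + UDCA. The LPS libraries were within a few TPM of each other, while the treated libraries fell into a lower and a higher pair. Its 4.33-fold rise, from 66.7 ± 1.80 to 289 ± 46.8 TPM, was the second largest among the genes tested here (log2 fold change 2.08 with an SE of 0.10, limma adjusted p = 1.6e-07), and none of its 31-base words occurs in another gene. Dnajb1 encodes the stress-inducible HSP40, which loads HSP70 with substrate. It had 28.8, 30.2, 29.4 and 28.9 TPM with LPS and 69.2, 62.5, 78.6 and 88.3 TPM with LPS + UDCA. The groups were well apart, with a 2.55-fold rise from 29.3 ± 0.651 to 74.7 ± 11.3 TPM (log2 fold change 1.31 with an SE of 0.09, limma adjusted p = 2.0e-06).

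The cytosolic HSP90 proteins come from 2 genes, of which Hsp90aa1 is the inducible and Hsp90ab1 the abundant, constitutive one. Hsp90aa1 had 178, 164, 133 and 153 TPM with LPS and 430, 440.3, 509 and 605 TPM with LPS + UDCA. Relative to its mean, it had the widest spread in the LPS group of the 9 genes tested, yet the groups remained far apart. Its mean rose 3.16-fold, from 157 ± 18.9 to 496 ± 80.8 TPM (log2 fold change 1.65 with an SE of 0.12, limma adjusted p = 2.1e-06). For Hsp90ab1 the values were 1708, 1622, 1584 and 1636 TPM with LPS and 2781, 2800.4, 2905 and 3019 TPM with LPS + UDCA. This was a 1.76-fold rise, from 1638 ± 51.7 to 2876 ± 109.6 TPM, below the fold change minimum (log2 fold change 0.81 with an SE of 0.04, limma adjusted p = 9.0e-08). In TPM, however, Hsp90ab1 gained 1239 and Hsp90aa1 339. Of the words of Hsp90aa1, 51.5% occur in other genes, above all the pseudogene Gm12346, which was listed at no more than 0.74 TPM in any library.

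In the mitochondria, Hspd1 (HSP60) builds the folding chamber and Hspa9 (mortalin) is the HSP70 that pulls proteins through the inner membrane. Hspd1 had 247, 218, 219 and 243 TPM with LPS and 433, 438, 489.9 and 534 TPM with LPS + UDCA. It rose 2.04-fold, from 232 ± 15.5 to 474 ± 47.8 TPM (log2 fold change 1.02 with an SE of 0.07, limma adjusted p = 2.0e-06). It lay so close to the fold change minimum that its log2 fold change was 1.00 without LPS replicate 2 or 3, in both cases just under it, 0.97 without LPS + UDCA replicate 4, and 0.95 with median-of-ratios scaling. Of its words 53.1% occur in other genes, mainly in the pseudogene Hspd1-ps3, which did not exceed 0.05 TPM. Hspa9 had 383, 370.0, 378 and 402 TPM with LPS and 424, 428, 459 and 472 TPM with LPS + UDCA. The gap between the groups was narrow, and the rise of 1.16-fold, from 383 ± 13.6 to 446 ± 23.5 TPM, was the smallest of the 9 (log2 fold change 0.22 with an SE of 0.04, limma adjusted p = 0.0016).

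Hsf1, on chromosome 15 from 76477422 to 76501913, had 27.5, 23.7, 23.5 and 26.1 TPM with LPS and 36.1, 37.4, 35.3 and 33.6 TPM with LPS + UDCA. Its transcript rose 1.41-fold, from 25.2 ± 1.94 to 35.6 ± 1.59 TPM, without reaching the minimum of 2 (log2 fold change 0.48 with an SE of 0.06, limma adjusted p = 9.1e-05). The activity of the factor is set on the protein, and the table holds transcripts alone.

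The order of the levels changed between the groups. With LPS the means ran Hsp90ab1, Hspa8, Hspa9, Hspd1, Hsp90aa1, Hsph1, Dnajb1, Hsf1, Hspa1b and Hspa1a from high to low, and no neighbours in that order overlapped between their libraries. With LPS + UDCA, Hspa8 stood first, at 5440 against 2876 TPM for Hsp90ab1. This change of first place may depend on how reads were divided with Gm15459. Hspa8 and Gm15459 together had 2372 TPM with LPS, already above the 1638 TPM of Hsp90ab1. TPM does not show whether Gm15459 has transcripts of its own. Hsp90aa1, Hspd1 and Hspa9 then followed, at 496, 474 and 446 TPM, and the libraries of each overlapped those of the next. Hspa1b (76.1 TPM) and Dnajb1 (74.7 TPM) also overlapped, and Hspa1b had moved above Hsf1 (35.6 TPM). Together the 10 genes took 3884 to 4119 TPM per library with LPS and 9176 to 11223 TPM with LPS + UDCA, which is 0.399% to 0.423% and 0.953% to 1.17% of all TPM listed. The share of Hspa8 in that sum was 36.3% ± 0.73 with LPS and 53.2% ± 1.73 with LPS + UDCA (SD, n = 4), counting the Hspa8 row alone, without the TPM listed under Gm15459.

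The treated libraries also differed among themselves in a shared way. In 8 of the 9 genes tested, LPS + UDCA replicates 3 and 4 were both above replicates 1 and 2, a pattern that 21.8% of all genes tested showed, and Hsf1 was the exception, with its lowest treated values in those libraries. This order was noticed after the values were seen. The coefficient of variation of TPM in the treated group was 28.5% for Hspa1b, 16.3% for Hsp90aa1, 16.2% for Hsph1, 15.1% for Dnajb1 and 12.3% for Hspa8, while it was 4.47% for Hsf1 and 3.81% for Hsp90ab1. In the LPS group the corresponding values were 8.78%, 12.0%, 2.70%, 2.22%, 2.78%, 7.71% and 3.15%. The labels name no batch within a group.

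**Figure D2:**
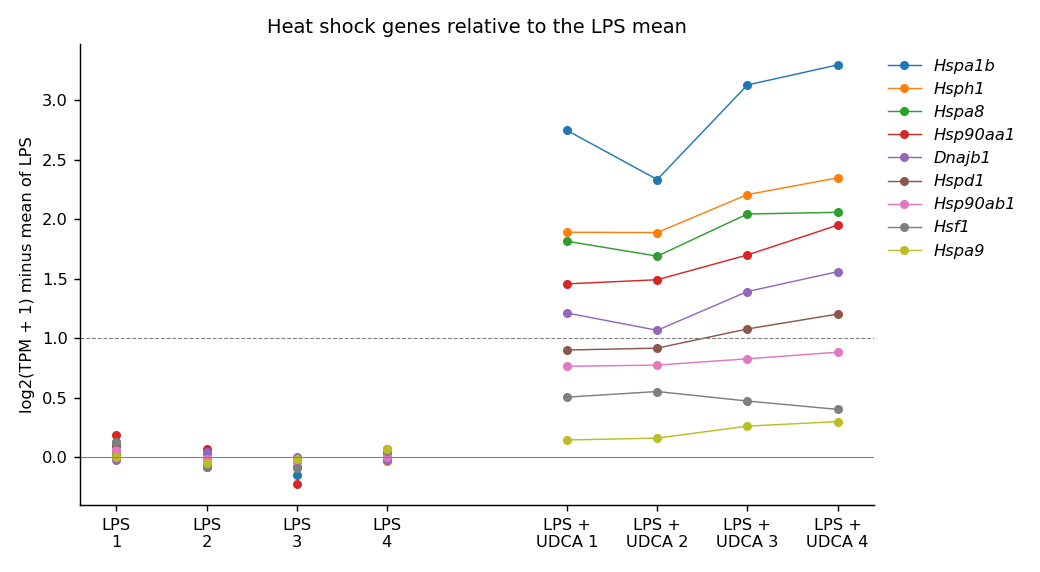
Log2(TPM + 1) of the 9 genes tested minus the mean of the LPS libraries, for each library, with colours for genes and a dashed line at a difference of 1. Lines join the values of a gene across the treated libraries, which have no order, and they show replicates 3 and 4 above 1 and 2 in every gene but Hsf1.

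Ratios between related genes within each library show whether partners kept their proportions. The log2 ratio of TPM was compared for 8 pairs by exact permutation tests (2-sided, 70 arrangements, smallest possible p = 0.029), with Benjamini-Hochberg adjustment over the 8, and 7 pairs reached an adjusted p of 0.033. Hsp90aa1 stood at 0.0955 ± 0.00895 of Hsp90ab1 with LPS and at 0.172 ± 0.0212 with LPS + UDCA, a shift of 0.84 in the log2 ratio, so the inducible form gained on the constitutive one. The sum of Hspa1a and Hspa1b likewise gained on Hspa8, from 0.00638 ± 0.000584 to 0.0138 ± 0.00242 of it (shift 1.10). Hsph1 and Hspa8 stayed nearly in step, at 0.0462 ± 0.00172 and 0.0530 ± 0.00327 (shift 0.20), and that call was lost when any 1 of the 4 LPS libraries was left out (adjusted p = 0.065 by the same exact test). Dnajb1 fell behind Hspa8, from 0.0203 ± 0.00103 to 0.0137 ± 0.000661 of it (shift -0.57). Here and below, ratios to Hspa8 use its row alone, without the TPM listed under Gm15459, so their levels may depend on how reads were divided.
In the mitochondrial pair, Hspa9 changed from 1.66 ± 0.0781 to 0.944 ± 0.0450 times the level of Hspd1 (shift -0.81). Hspe1, which encodes the HSP10 lid of the HSP60 chamber, starts 111 bases from Hspd1 on the opposite strand, and the pair share the element printed above. Hspd1 rose from 0.545 ± 0.0580 to 0.864 ± 0.0622 of Hspe1 (shift 0.67). Hspe1 itself rose 1.28-fold, from 427 ± 28.6 to 548 ± 16.4 TPM (log2 fold change 0.36, with a limma adjusted p of 0.00013). The first exons of the 2 genes overlap in the annotation, and 30.5% of the words of Hspe1 occur in other genes.

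**Figure D3:**
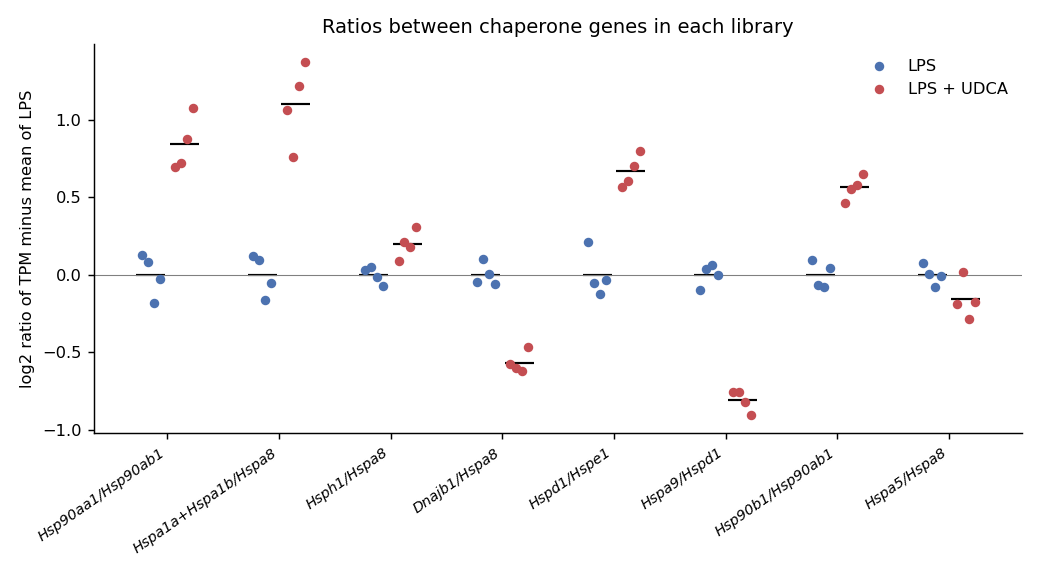
Log2 ratio of TPM between the genes of 8 pairs in each library, minus the mean ratio of the LPS libraries, with LPS in blue, LPS + UDCA in red and a black line at each group mean. In 7 pairs the red and blue points do not overlap, and in Hspa5/Hspa8 they do.

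The other genes of the heat shock and chaperone network were followed in 8 lists compiled by symbol, with earlier results of these data known. These held 94 symbols in all, of which 93 were listed and 77 tested. Of the 77, 46 were higher and 16 lower at an FDR under 0.05 from limma, and 12 were higher and 2 lower with the fold change minimum added. Of all genes tested, 40.2% were higher and 32.3% lower at the FDR, and 8.71% and 8.44% past both thresholds, and the counts of each list are to be read against these shares. Their median log2 fold change was 0.36.
Among the other HSP70 and HSP110 genes, Hspa4l, an HSP110 paralog of Hsph1, rose 3.38-fold, from 12.4 ± 1.78 to 42.0 ± 3.03 TPM (log2 fold change 1.68), while 3 of the 5 tested were higher and 1 lower at the FDR (all genes tested: 40.2% and 32.3%), and Hspa12a, the lowest, did not pass the FDR (log2 fold change -0.32). Of the J-domain proteins of the cytosol and nucleus, 10 of 15 were higher and 1 lower at the FDR, against 40.2% and 32.3% of all genes tested. Dnaja1, an HSP40 of the cytosol, had 55.6 ± 4.35 and 170 ± 25.8 TPM (log2 fold change 1.59), Dnajb4 had 6.86 ± 0.653 and 23.2 ± 2.18 TPM (1.62), and Dnajb2 rose 2.93-fold, from 16.8 ± 2.40 to 49.3 ± 3.17 TPM. Dnajc9, which is a histone chaperone, went the other way, from 47.9 ± 1.91 to 14.97 ± 1.12 TPM (log2 fold change -1.62). Dnajb6, whose window holds the 3-unit word, had 90.5 ± 4.54 and 97.5 ± 3.51 TPM and did not pass (adjusted p = 0.064 from limma).
Of the nucleotide exchange and BAG proteins, 3 of 7 were higher and 4 lower at the FDR, where 40.2% and 32.3% of all genes tested were, and the median log2 fold change was -0.22. Bag3, which joins HSP70 to small heat shock proteins and selective autophagy, rose 2.44-fold from 30.5 ± 1.57 to 74.4 ± 5.90 TPM (log2 fold change 1.26), and Bag1, which links HSP70 to the proteasome, was lowest at -0.69, with 143 ± 11.4 and 88.5 ± 5.38 TPM.

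Of 18 HSP90 co-chaperones 9 were higher and 5 lower at the FDR, and 4 rose and 1 fell past both thresholds. The counts at the FDR were near the shares of all genes tested (40.2% higher and 32.3% lower), while 8.71% and 8.44% of all genes passed both thresholds. The highest was Ahsa2, an activator of the HSP90 ATPase, at 12.4 ± 0.442 and 33.0 ± 1.67 TPM (log2 fold change 1.34), but 47.2% of its words occur in other genes, mainly the gene Usp34 that overlaps it on the opposite strand. Chordc1 had 28.5 ± 5.86 and 72.4 ± 8.26 TPM (log2 fold change 1.33), Ppid, the cyclophilin CYP40, had 61.2 ± 3.73 and 130.2 ± 12.9 TPM (1.07), and Stip1, the adaptor that joins HSP70 to HSP90, rose 2.02-fold, from 127 ± 1.40 to 256 ± 21.6 TPM. With median-of-ratios scaling Ppid (0.99) and Stip1 (0.93) were under the minimum on the log2 scale, and Stip1 was so without LPS replicate 3 (0.9965), LPS + UDCA replicate 3 (0.997) or LPS + UDCA replicate 4 (0.95). Fkbp5, an immunophilin of steroid receptor complexes, fell from 21.0 ± 0.657 to 9.66 ± 0.769 TPM (log2 fold change -1.05).
Among 13 mitochondrial chaperones and proteases, 6 were higher and 4 lower at the FDR, close to the 40.2% and 32.3% of all genes tested. Clpx, the unfoldase of the matrix protease, rose 2.13-fold from 15.3 ± 1.25 to 32.5 ± 2.26 TPM (log2 fold change 1.04, and 0.97 with median-of-ratios scaling), while Clpp, its proteolytic partner, was lowest of the list at -0.73, with 97.3 ± 5.53 and 58.2 ± 3.21 TPM. Clpx was also under the minimum with quantile normalization (0.9935), without LPS replicate 2 (0.98) and without LPS + UDCA replicate 4 (0.9972). The chaperonin TRiC and its partner prefoldin showed 11 of 14 genes higher and 0 lower at the FDR (all genes tested: 40.2% and 32.3%), none past a fold change of 2 (8.71% higher and 8.44% lower), and ranged from -0.09 for Pfdn6 to 0.62 for Cct6a. At an unadjusted p under 0.05 the count of lower genes was 0 as well.
Of 10 genes listed by symbol as small heat shock proteins, 7 were below 1 TPM on average. Hspb1 and Cryab, the ones most often followed as stress markers, were among these 7. Hspb6 (HSP20) rose 2.72-fold from 3.83 ± 0.258 to 10.4 ± 1.79 TPM (log2 fold change 1.23), and Hspb11 was the lowest of the 3 tested, at 0.77. Of the regulators, Hsf2, a second heat shock factor, rose 2.21-fold from 6.47 ± 0.395 to 14.3 ± 2.85 TPM (log2 fold change 1.01, and 0.94 with median-of-ratios scaling), Hsbp1, which encodes a small protein that binds HSF1 trimers, fell from 86.9 ± 1.52 to 69.3 ± 4.25 TPM (-0.32), and Hsf3, Hsf4, Hsf5 and Hsbp1l1 were below 1 TPM on average. The log2 fold change of Hsf2 was under the minimum with quantile normalization (0.94) and without LPS replicate 2 (0.99), LPS + UDCA replicate 3 (0.93) or LPS + UDCA replicate 4 (0.94).

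**Figure D4:**
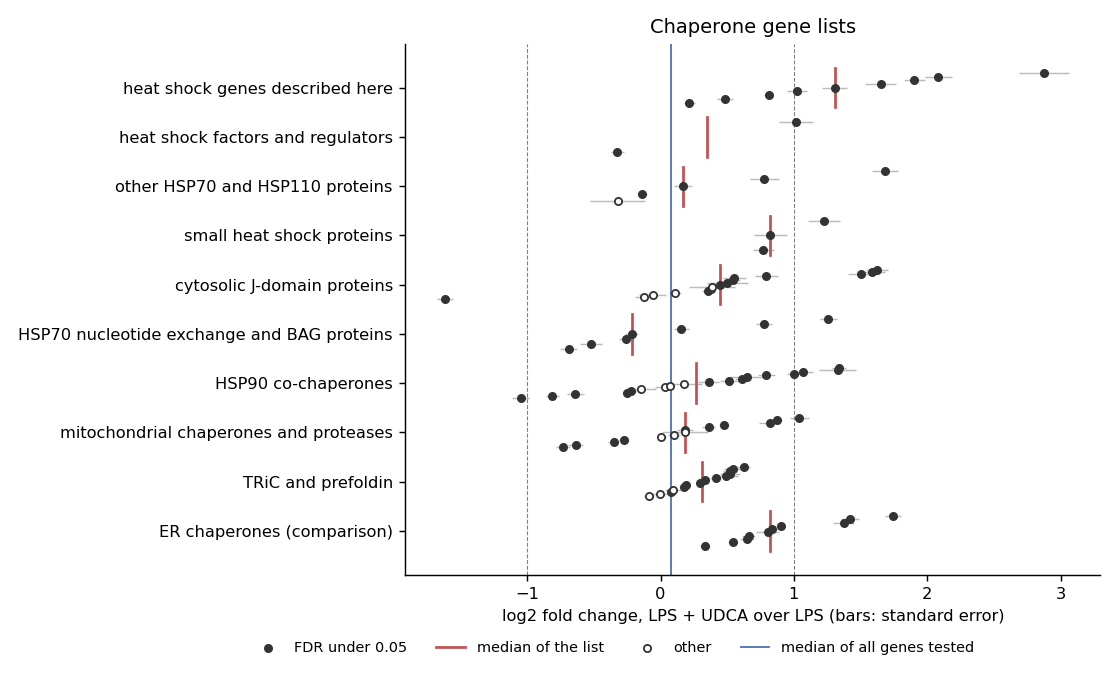
Log2 fold change of each tested gene in the 10 heat shock genes and 9 related lists, with bars for the standard error, filled points for an FDR under 0.05, a red line at the median of each list, a blue line at the median of all genes tested (0.08) and dashed lines at a fold change of 2. The heat shock genes have the highest median (1.31), and the list of nucleotide exchange and BAG proteins is the one with a median below 0. The genes and lists were chosen with earlier results of these data known, so this order is a description.

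In the endoplasmic reticulum, whose chaperones answer to other stress sensors, all 10 genes followed for comparison were higher at the FDR and 3 passed both thresholds, where 40.2% and 8.71% of all genes tested did. Their median on the log2 scale was 0.82. Hspa5 (BiP), the HSP70 of that compartment, had 831 ± 47.5 and 2790.0 ± 213 TPM (log2 fold change 1.74), and its ratio to Hspa8 was 0.575 ± 0.0256 with LPS and 0.516 ± 0.0470 with LPS + UDCA, with overlapping libraries (exact permutation test, adjusted p = 0.11). Hsp90b1 (GRP94), the HSP90 of the compartment, rose from 248 ± 22.02 to 645 ± 58.1 TPM (log2 fold change 1.37) and gained on Hsp90ab1, from 0.152 ± 0.00890 to 0.224 ± 0.0120 of it (shift 0.56, adjusted p = 0.033 by the same exact test). Dnajb9 was the third gene past both thresholds (log2 fold change 1.42), and Dnajb11 was the lowest (0.33).

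TPM keeps no record of reads, so depth is unknown and the error is the spread between replicates. The columns summed to 973190 to 977485 TPM with LPS and to 958918 to 962737 TPM with LPS + UDCA, and 11412 to 11517 against 11648 to 11730 genes reached 1 TPM. All 10 macrophage markers checked were detected, and their summed level was 4241 to 4475 TPM with LPS and 2082 to 2339 TPM with LPS + UDCA. Markers of T cells, B cells, epithelial cells, fibroblasts and endothelial cells were each below 1 TPM in every library (18 of 18). The sum does not give the direction of each macrophage marker. The part of the lower column sums and of the lower macrophage marker sum in the results was not tested.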

How the data were processed

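RNA from 8 cultures of J774A.1 cells (4 per group, grouped by the treatment label) was sequenced on an Illumina HiSeq instrument after TruSeq library preparation. The authors deposited TPM per gene with 2 decimals and 1 column per library. The unit was inferred from column sums of 958918 to 977485. The submitters' processing notes name Bowtie 0.12.2 and the builds mm10 and GRCm38, while the counting program, the annotation and the use of strand are not given in the sources used here. Read depth cannot be recovered from TPM, and errors are between libraries only.

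The 11796 genes averaging 1 TPM or more were fitted as log2(TPM + 1) with limma 3.58.1 (R 4.3.3, moderated statistics, trend on) and Benjamini-Hochberg adjustment over all of them. Calls used an FDR under 0.05, with and without the fold change of at least 2 in the study's methods. A count test had been planned for counts alone. Pair ratios were compared by exact permutation tests. Positions, overlaps and 31-base words shared with other genes on either strand are from GENCODE M21 (GRCm38), and promoter windows are from RefSeq (GRCm38.p6). From the lists, Dnajc20 was not found in the table under that symbol. The text names the 10 genes, the genes of the pairs, the highest and lowest gene of each list and list genes past both thresholds. Dnajb6, Dnajb14, Hspb8, Calr, Cct2, pseudogenes, and the small heat shock protein and factor genes under 1 TPM were named after their values were seen. The 10 genes and the lists were chosen with earlier results of these data known. The fit was tested on simulated data. No 2 of the 8 libraries held identical values. Alternatives covered normalization, filter, pseudocount, trend, replicate block and leaving out each library. Other steps ran in Python 3.11.15.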

Additional observations from a re-analysis of the deposited data

Results flagged for a closer look

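Single libraries far from their group were looked for with Dixon's ratio (the distance of an extreme library to its neighbour, over the span of all 4) in 72 sets of 4 TPM values, from the 36 genes named by the rule. At the 95% critical value chance gives about 1 in 20, or 3.6, and 1 was found. Hsbp1 was listed at 62.97 TPM in LPS + UDCA replicate 2, below the 70.8 to 71.9 TPM of the other treated libraries (ratio 0.876). None of the 10 heat shock genes had such a library.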

How the results depend on the processing

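Under the 15 alternatives to the fit, all 9 tested heat shock genes kept their direction and an FDR under 0.05, and 5 of them (Hspa1b, Hsph1, Hspa8, Hsp90aa1 and Dnajb1) passed both thresholds each time. Hspd1 did so in 12 of 16 fits. With every gene above 0 TPM tested, Hspa1a passed the FDR too, for 10 of 10. That fit took in more genes, so the 40.2% of the main fit is not the share to read this count against. Hspa1a was listed at 0 to 0.05 TPM with LPS and at 0.07 to 0.44 TPM with LPS + UDCA. These levels are low for values given to 2 decimals, so its call is uncertain. Past both thresholds, 683 genes in all were higher with a filter at a mean of 5 TPM, because fewer genes were tested, against 1028. Of the other chaperone lists, 1 to 2 genes were lower past both thresholds when a library was left out, since Fkbp5 had a log2 fold change of -0.998, just short of the minimum, without LPS + UDCA replicate 3. With median-of-ratios scaling, Cct2 changed from 0.08 to -0.0015. Some genes passed both thresholds under an alternative alone. With a pseudocount of 0.1 these were Hspb8 (log2 fold change 1.064) and Dnajb14 (1.101). The other chaperone lists then had 14 genes higher past both thresholds, against 12. With quantile normalization Calr passed as well (1.007). Some medians of the lists moved too. The median log2 fold change of the nucleotide exchange and BAG proteins was -0.22 in the main fit. It was -0.03 with the filter at 5 TPM, -0.15 with quantile normalization and -0.30 with median-of-ratios scaling. The groups share replicate numbers, and deviations from the group means correlated by -0.035 to 0.15 across genes for the 4 same-numbered pairs of libraries, so the numbers were not taken as a pairing. Fitted with a replicate block, 9 heat shock genes were higher at the FDR and 6 past both thresholds, as without it. An exact sign-flip test over same-numbered pairs, taken as a block, cannot go below p = 0.125, and the shifts of 0.84 (Hsp90aa1/Hsp90ab1), 1.10 (Hspa1a+Hspa1b/Hspa8), 0.20 (Hsph1/Hspa8), -0.57 (Dnajb1/Hspa8), 0.67 (Hspd1/Hspe1), -0.81 (Hspa9/Hspd1) and 0.56 (Hsp90b1/Hsp90ab1) had an adjusted p of 0.14 there. With a library left out, the shift of Hsph1/Hspa8 was 0.16 to 0.23 and that of Hspa5/Hspa8 was -0.22 to -0.12, the latter passing without LPS + UDCA replicate 2. Summing Hspa1a and Hspa1b gave 9.22 and 76.4 TPM, and summing Hspa8 and Gm15459, chosen after seeing the data, gave 2372 and 9045 TPM.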

Other observations

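The 3-unit heat shock element was found in promoter windows of 179 genes, of which 47 were tested. Of these, 8 were higher (17%) and 2 lower past both thresholds, where 8.71% and 8.44% of all genes tested were. Their median log2 fold change was 0.23. At the FDR alone 21 were higher (44.7%) and 9 lower, near the 40.2% and 32.3% of all genes tested. Without the genes of the chaperone lists, 42 were tested. Past both thresholds 5 of them were higher (11.9%) and 2 lower, and the median was 0.18. At the FDR alone 17 were higher (40.5%) and 9 lower. The genes past both thresholds outside the lists were Nploc4, Nnat, Tmcc2, Cyp2ab1 and Kctd18, which rose, and Dnmt1 and Ccnd3, which fell. This look at the element was chosen after the levels of the heat shock genes were seen, and it was not tested.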
